A study of Homo sapiens with 4 samples.

Results

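The genes described here encode subunits of respiratory complexes I to IV that are made from nuclear genes, measured in T84 cells. T84 is an established line from a human colorectal carcinoma and grows as a polarised layer on permeable supports. They were chosen by name, as 56 gene symbols, and every probe set that the platform annotation assigns to a single one of these symbols was used. In all, 50 of the 56 genes had such a probe set, out of 12264 expressed genes on the arrays: 32 of 35 for complex I, 2 of 3 for complex II, 6 of 8 for complex III and 10 of 10 for complex IV. NDUFC2, NDUFS5, NDUFS8, SDHB, UQCRFS1 and UQCRH had none and are not described further. The 56 symbols do not cover every nuclear-encoded subunit: NDUFAB1, SDHD and UQCR11, for example, are not among them. The 50 genes had 102 probe sets, 88 of them above the filter on low signal, and 22 genes had at least 2 above it. The arrays were Affymetrix U133 Plus 2.0, with 1 array in each of 4 groups. Every culture was T84, with 500000 cells put in each well, a filter 24 mm wide, and 15 pmol of oligonucleotides. The 2-miRNA culture got miR-451 together with miR-338-3p and was harvested at day 5. The 4-miRNA culture got the same pair plus miR-33a and miR-210, also harvested at day 5. The control cultures got a negative-control short RNA, and 1 was harvested at day 5 and 1 at day 7.

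The respiratory chain sits in the inner mitochondrial membrane. Complex I takes electrons from NADH and complex II takes them from succinate, both pass them through ubiquinone to complex III, and complex IV hands them from cytochrome c to oxygen. Complexes I, III and IV also pump protons, and the gradient drives ATP synthase. A few core subunits are made inside the mitochondrion from its own DNA, while the members described here are transcribed in the nucleus and imported. In low oxygen, hypoxia-inducible factor (HIF) is known to turn cells from respiration towards glycolysis, and miR-210 is itself a HIF target reported to lower ISCU, a scaffold for iron-sulfur clusters, and COX10, an enzyme that makes the haem of complex IV.

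Short RNAs act through their seed, bases 2 to 8, so the mature sequences are shown for the transfected miRNAs, with the seed in capitals. The labels give an arm for miR-338-3p alone; for miR-210 and miR-33a the arm usually meant by the name is shown. The sequences are RefSeq's, for GRCh38.p14.
hsa-miR-210-3p: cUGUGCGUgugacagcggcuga
hsa-miR-338-3p: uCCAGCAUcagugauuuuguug
hsa-miR-33a-5p: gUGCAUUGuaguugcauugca
These 3 seeds differ from each other. The table used here has no entry for miR-451.

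Promoters of respiratory chain genes are known for sites of NRF1 (nuclear respiratory factor 1), of GABPA and other ETS factors, and of YY1. The window from 250 bases before to 50 after the annotated start was found in RefSeq for 48 of the 56 members. An exact search on both strands found the NRF1 core GCATGCG in 9 of the 48 (18.8%) and in 4.74% of the 27305 genes in the promoter table. The ETS motif CCGGAAG was in 13 (27.1%, against 12.2%) and the YY1 motif AAGATGG in 13 (27.1%, against 7.11%). In total 28 of the 48 held the NRF1 core, the ETS or the YY1 motif, and 20 held none of them. The 27305 genes were not limited to those expressed here, and a gene counted when any of its listed starts held the motif. These shares are therefore not matched to the members. A match to letters is a description and not a bound site. The following 4 stretches of 250 bases before the start are shown because NDUFA5 and NDUFS6 stood at opposite ends of the members on the 4-miRNA array while both held the core, NDUFB4 held it near the median of complex I, and COX6A1 held it at more than 1 place in complex IV. Capitals mark the core on either strand.
NDUFA5 (GRCh38.p14, chr7:123557819-123558068, minus strand): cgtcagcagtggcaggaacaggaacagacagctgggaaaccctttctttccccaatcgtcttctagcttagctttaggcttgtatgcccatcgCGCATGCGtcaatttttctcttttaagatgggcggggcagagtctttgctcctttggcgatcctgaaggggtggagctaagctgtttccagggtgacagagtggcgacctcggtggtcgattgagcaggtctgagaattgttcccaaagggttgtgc
NDUFS6 (chr5:1801157-1801406, plus strand): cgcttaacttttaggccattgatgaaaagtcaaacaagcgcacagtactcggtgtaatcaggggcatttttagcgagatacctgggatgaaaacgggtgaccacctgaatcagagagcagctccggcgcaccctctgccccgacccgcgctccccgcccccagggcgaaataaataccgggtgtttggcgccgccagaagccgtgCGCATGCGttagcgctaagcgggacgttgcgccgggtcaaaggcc
NDUFB4 (chr3:120596086-120596335, plus strand): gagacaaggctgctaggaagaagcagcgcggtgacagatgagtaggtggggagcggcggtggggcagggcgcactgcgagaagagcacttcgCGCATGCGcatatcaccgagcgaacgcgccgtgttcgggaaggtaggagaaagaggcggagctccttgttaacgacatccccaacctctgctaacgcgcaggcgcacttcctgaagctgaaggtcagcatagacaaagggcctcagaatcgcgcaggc
COX6A1 (chr12:120437863-120438112, plus strand): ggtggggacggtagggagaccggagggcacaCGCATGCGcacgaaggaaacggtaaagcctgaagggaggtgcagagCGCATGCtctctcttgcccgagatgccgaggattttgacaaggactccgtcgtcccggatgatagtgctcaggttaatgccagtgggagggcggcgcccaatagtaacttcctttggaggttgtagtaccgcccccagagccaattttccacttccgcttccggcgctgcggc
The match begins 157 bases before the start in NDUFA5 and 45 bases before it in NDUFS6. The promoter table lists other starts of NDUFA5 upstream, whose 250 bases hold no match. Members with the core and members without it had about the same median on the 4-miRNA array relative to the day 5 control (−0.40 for 8 measured genes, −0.36 for 36).

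Signals below are the deposited intensities multiplied so that each array's mean, without the lowest and highest 2% of probe sets, is 500. Differences are log2 values of that scaled signal plus 32, for the brightest probe set of each gene. Each group is 1 array, so differences carry no test and no p-value, and their precision is limited by that number. The SD of 1 probe set's difference was derived from the disagreement within pairs of probe sets of a gene, for 1736 genes. Both probe sets had a mean log2 signal of at least 9. This SD, smaller than that of the disagreement itself, was 0.58 for either miRNA array against the day 5 control. It was 0.27 between the controls and 0.19 between the miRNA arrays. The SD of 1 probe set serves as a rough error of a single gene's difference. The members were brighter than that floor, with a median log2 signal of 13.24. Their differences relative to day 5 had an SD over genes of 0.40 (2-miRNA) and 0.36 (4-miRNA), below 0.58. This error is therefore a rough guide for them and not their own. Spread between cultures was not measured.

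The arrays differed in overall signal. The trimmed mean as deposited was 147 and 150 on the miRNA arrays and 76.6 and 74.3 on the controls, but the highest deposited value lay between 17832 and 18749 on all 4. After scaling, the highest signal was therefore 63579 and 59437 on the miRNA arrays against 122364 and 120874 on the controls. Many members are bright, so this touches them directly. Of the colonic epithelium markers all 11 were expressed, against 2 of 6 fibroblast, 2 of 6 leukocyte and 1 of 5 endothelium markers. The 3′ to 5′ signal ratio was between 0.95 and 1.02 for GAPDH and between 1.97 and 2.33 for ACTB. In bulk RNA, fewer cells of a type and less RNA per cell cannot be told apart.

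On both miRNA arrays most subunit genes read lower than on the controls. Relative to the day 5 control, 41 of 50 members were below 0 on the 2-miRNA array, where 59.4% of all expressed genes were, with a median of −0.40 against −0.16 for all genes. On the 4-miRNA array 44 of 50 were below 0, where 59.0% of all genes were, with a median of −0.39 against −0.15. These comparisons share the day 5 control. Relative to the day 7 control the members' medians were −0.40 and −0.40, with 39 and 42 of 50 below 0 (all genes 61.1% and 60.9%). In these comparisons 1 and 0 members were at least 2-fold lower (4.03% and 4.15% of all genes) and 0 and 0 at least 2-fold higher (6.19% and 5.63%). At 0.5 on the log2 scale, 18 and 20 were lower (24.0% and 22.2%) and 1 and 3 higher (15.9% and 15.4%). The shift was small for any single gene: 2 members on the 2-miRNA array (NDUFA7 and NDUFS6) and 1 on the 4-miRNA array (NDUFS6) were at least 2-fold lower than the day 5 control, against 6.37% and 6.7% of all genes, and none was at least 2-fold higher (8.11% and 8.03% of all genes). At a smaller limit of 0.5 on the log2 scale, 17 and 15 members were lower (28.1% and 27.1% of all genes) and 1 and 1 higher (18.9% and 19.3%).

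In 37 of 50 members both miRNA arrays lay below both controls, a pattern that 41.0% of all genes had, and in 4 both lay above, which 22.8% of all genes had. By complex, the miRNA arrays lay below the controls for 24 of 32 complex I genes, 1 of 2 complex II genes, 4 of 6 complex III genes and 8 of 10 complex IV genes. The 4 genes that lay above were NDUFA5, UQCRB, UQCRC2 and COX5A.

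**Figure D1:**
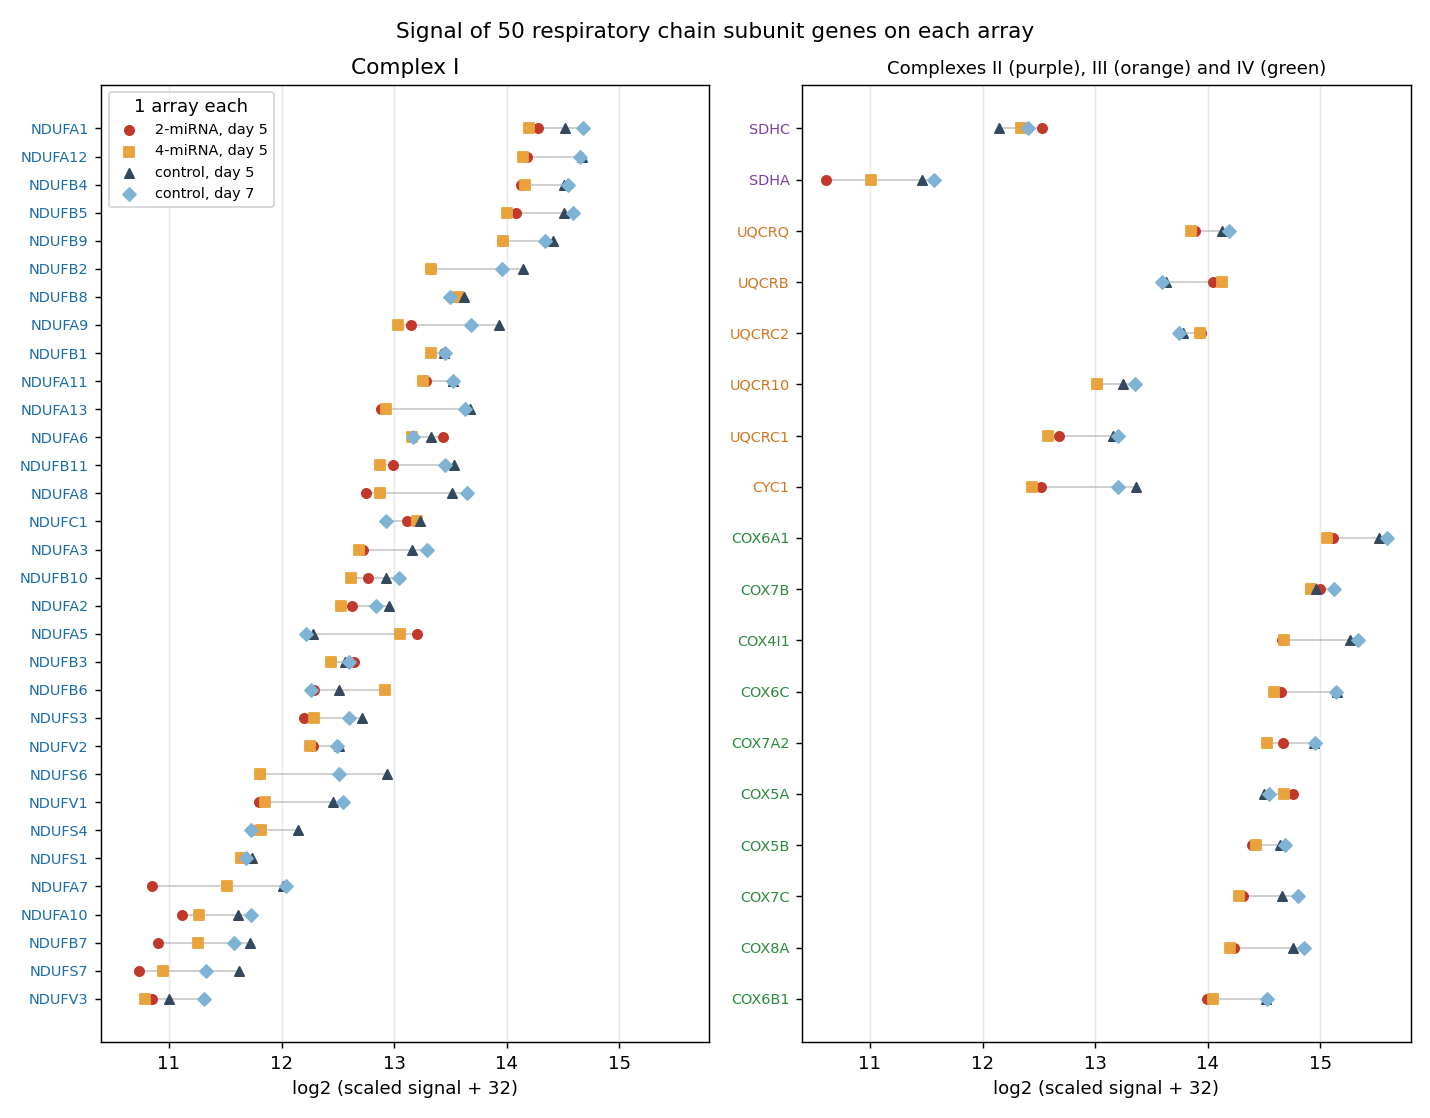
Scaled signal of the 50 subunit genes on each of the 4 arrays, on the x axis as log2 of scaled signal plus 32, with genes on the y axis ordered by mean signal within a complex. Points are single arrays and the grey line joins the lowest and the highest. In 37 genes the red and orange points (miRNA arrays) lie left of both blue points (controls), and NDUFA5, UQCRB, UQCRC2 and COX5A show the opposite order.

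How far this shift belonged to the subunits depended on how bright genes were compared. The brightest 2.5% of expressed genes, 307 in number, had medians of −0.36 (2-miRNA) and −0.37 (4-miRNA) relative to the day 5 control, but at a median log2 signal of 14.54 they are brighter than the members (13.24). The brightest 10%, 1227 genes with a median log2 signal of 13.14, had −0.18 and −0.16, nearer 0 than the members' −0.40 and −0.39. The deposited, unscaled values of the members went the other way: only 2 and 1 of 50 read lower than on the day 5 control, with a median log2 ratio of 0.55 and 0.57, but all expressed genes had 0.77 and 0.81. COX2, a complex IV subunit made from mitochondrial DNA, had deposited values of 16773, 16929, 16895 and 17707 on the 2-miRNA, 4-miRNA, day 5 and day 7 arrays, close to the highest value of each array. When differences were centred on the running median of genes of like brightness, the members' median was −0.15 and −0.21, with 35 and 38 of 50 below 0. All genes under the same centring had medians of −0.07 and −0.04, with 54.1% and 52.6% below 0. With quantile normalization the medians were −0.23 and −0.29. Whether the signal range of the arrays sets the remaining shift was not tested.

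**Figure D2:**
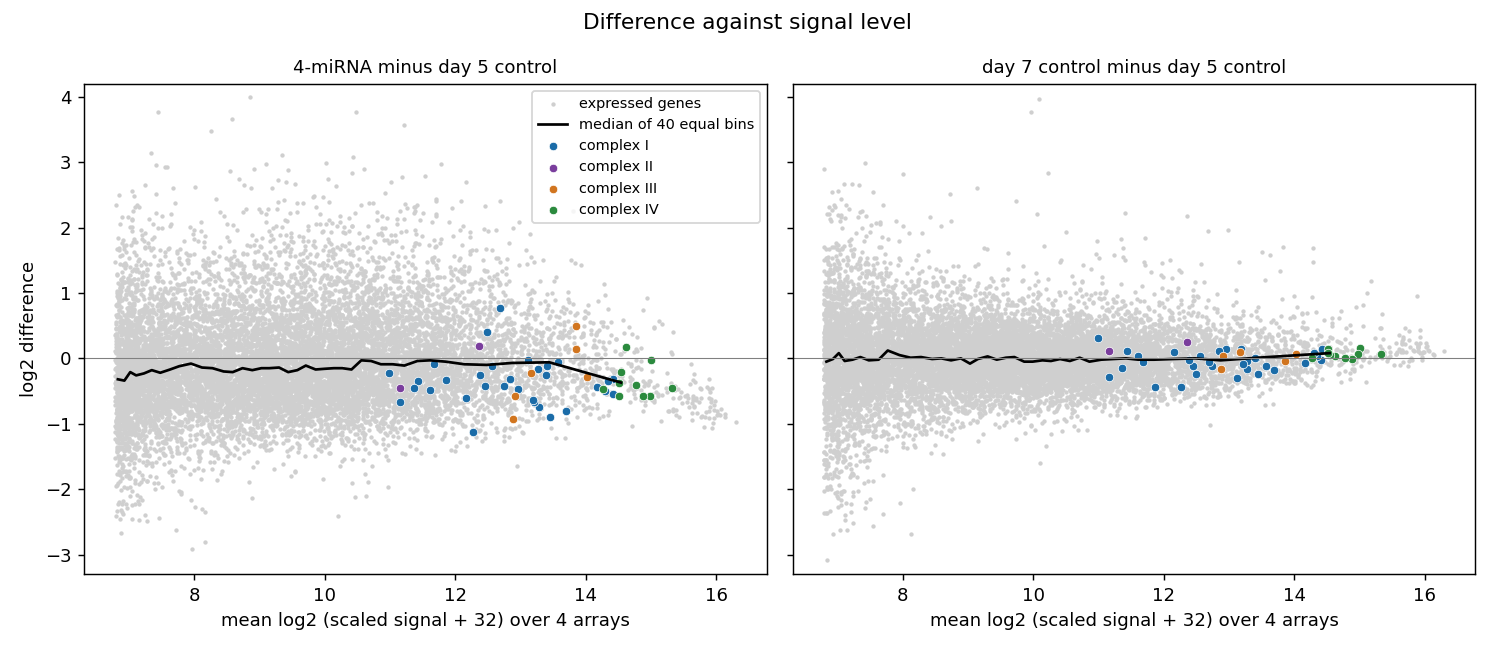
Log2 difference of each expressed gene (y axis) against its mean log2 signal over the arrays (x axis), for the 4-miRNA array and for the day 7 control, each minus the day 5 control. Grey points are all 12264 genes, the black line joins the medians of 40 bins of equal size, and coloured points are the members by complex. In the left panel the last bin of the line is at −0.37, where most complex IV genes lie, and in the right panel it is at 0.08.

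Complex I, the NADH dehydrogenase, had medians of −0.42 (2-miRNA) and −0.39 (4-miRNA) relative to the day 5 control. Of its 32 genes 28 and 30 were below 0, where 59.4% and 59.0% of all genes were. After running-median centring the medians were −0.20 and −0.25, beside −0.07 and −0.04 for all genes. Then 25 and 28 of 32 were below 0, where 54.1% and 52.6% of all genes were. Genes of the peripheral arm, which reaches into the matrix and oxidises NADH, had −0.45 and −0.42 over 14 genes, and −0.29 and −0.33 after centring. The membrane arm, which pumps protons, had −0.40 and −0.35 over 18 genes, and −0.16 and −0.23 after centring. Whether the arms differ was not tested. The middle 50% of genes ran from −0.75 to −0.17 in the peripheral arm and from −0.53 to −0.18 in the membrane arm on the 2-miRNA array.

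The catalytic core of complex I carries the flavin and the iron-sulfur clusters. All 5 measured core genes lay below 0 on both miRNA arrays relative to day 5, where 59.4% and 59.0% of all genes did. NDUFS7, which holds the last cluster before ubiquinone, read 1670 on the 2-miRNA array, 1944 on the 4-miRNA array, 3110 on the day 5 and 2544 on the day 7 control. Both miRNA values were below both controls, by 0.88 and 0.67 relative to day 5. NDUFV1, the subunit that binds NADH and the flavin, read 3545 and 3653 against 5603 and 5947, with differences of −0.66 and −0.61 from day 5. NDUFS3 had −0.51 and −0.42, and NDUFV2 had −0.23 and −0.26. NDUFS1, the largest iron-sulfur subunit, read 3210, 3166, 3379 and 3251 in the same order of arrays, which is nearly level (−0.07 and −0.09). Its 5 expressed probe sets did not agree, with differences from −0.30 to 0.77 on the 4-miRNA array.

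Among the accessory genes of the peripheral arm, NDUFS6, a zinc-binding subunit needed for assembly, stood lowest on the 4-miRNA array. It read 3549, 3559, 7836 and 5785 on the 2-miRNA, 4-miRNA, day 5 and day 7 arrays. Both miRNA values were below both controls, by 1.14 and 1.13 relative to day 5 and by 0.70 and 0.70 relative to day 7, and the day 7 control was itself lower than day 5 by 0.44. NDUFA7 read 1817, 2905, 4089 and 4184, so it was lower by 1.16 (2-miRNA) and by 0.49 (4-miRNA). NDUFA9, a subunit near the ubiquinone site, read 9054, 8347, 15557 and 13127, with differences of −0.78 and −0.90. These genes did not overlap between miRNA arrays and controls.

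NDUFA5 was the complex I gene that stood above both controls on both miRNA arrays. It read 9383 and 8450 on the miRNA arrays against 4932 and 4740 on the controls, so both miRNA arrays were higher, by 0.92 and 0.77 relative to day 5 and by 0.98 and 0.83 relative to day 7. Its second probe set was under the filter on low signal, so no other expressed probe set bears on this value. NDUFA6 read 11033, 9107, 10275 and 9179 and overlapped between the groups. NDUFS4, a subunit whose loss causes Leigh syndrome, read 3390, 3581, 4525 and 3356, so the day 5 control stood above the other arrays. NDUFV3 read 1810, 1733, 2023 and 2512, with the day 7 control above the others. NDUFA2 (−0.31 and −0.42) and NDUFA12 (−0.49 and −0.54) lay below both controls.

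In the membrane arm, NDUFB2 read 10241, 10272, 18052 and 15916, lower on both miRNA arrays by 0.82 and 0.81 relative to day 5. Its second bright probe set read nearly level, at 0.06 and 0.09. NDUFB7, a subunit of the intermembrane space, read 1877, 2420, 3338 and 3024, with −0.82 and −0.46. NDUFA13, also known as GRIM-19, had −0.79 and −0.74, and NDUFA8 had −0.76 and −0.64. Between −0.60 and −0.20 relative to day 5 on the 2-miRNA array lay NDUFB11 (−0.54), NDUFA10 (−0.49), NDUFB9 (−0.45), NDUFA3 (−0.44), NDUFB5 (−0.42), NDUFB4 (−0.38), NDUFA11 (−0.24) and NDUFA1 (−0.24), and NDUFB10 was at −0.17. In all of these the miRNA arrays lay below both controls. NDUFA1 read 19921, 18843, 23517 and 26176.

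The other membrane arm genes overlapped. NDUFB6 read 4981, 7706, 5789 and 4882, with the 4-miRNA array standing above the other 3. NDUFB3 read 6354, 5538, 6019 and 6161, NDUFC1 read 8809, 9385, 9577 and 7787, and NDUFB8 read 12197, 12100, 12584 and 11548. NDUFB1 differed from day 5 by 0.00 and −0.11. NDUFB8 is uncertain, since its second bright probe set read 5828, 5010, 8452 and 7071, below both controls (−0.53 and −0.75 relative to day 5), and a dim one stood 1.21 higher on day 7 than on day 5. For NDUFC1 the probe sets ran from −0.30 to 0.88 between the controls.

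Complex II, succinate dehydrogenase, belongs to the citric acid cycle as well as to the chain. The 2 measured genes of its list stood apart. SDHD, a further subunit, was not in the list and is given below with the reported targets of miR-210. It differed from day 5 by −0.02 and −0.26. SDHA, the flavoprotein that oxidises succinate, read 1535, 2023, 2777 and 3003 on the 2-miRNA, 4-miRNA, day 5 and day 7 arrays. The miRNA values lay below both controls, by 0.84 and 0.45 relative to day 5. The probe set of SDHA carries the suffix by which Affymetrix marks possible cross-hybridisation, and SDHA has pseudogenes, so this value is uncertain. SDHC, a membrane anchor, read 5875, 5156, 4515 and 5384 and overlapped. Its 6 expressed probe sets ran from −0.88 to 0.45 on the 2-miRNA array and from −0.86 to 0.70 on the 4-miRNA array, so no direction is given for it. The median over 2 genes was −0.23 and −0.13, and −0.69 and −0.51 when the probe sets of each gene were reduced to their median.

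Complex III, the cytochrome bc1 complex, had genes on both sides of 0. Its median was −0.24 and −0.26 relative to day 5. On each miRNA array 4 of 6 genes were below 0, near the share of all genes (59.4% and 59.0%). CYC1, cytochrome c1, read 5832 and 5523 on the miRNA arrays against 10477 and 9365 on the controls. It was lower than both controls on both miRNA arrays, by 0.84 and 0.92 relative to day 5. UQCRC1, a core protein, read 6527 and 6106 against 9138 and 9386 (−0.48 and −0.58). UQCRQ (−0.24 and −0.28) and UQCR10 (−0.24 and −0.23) were also below both controls.

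UQCRB, a subunit at the ubiquinone site, was higher by its brightest probe set: it read 16895 and 17856 on the miRNA arrays against 12653 and 12300 on the controls, by 0.42 and 0.50 relative to day 5. Its 4 expressed probe sets ran from 0.09 to 1.71 on the 4-miRNA array relative to day 5. The next brightest, which may cross-hybridise, read 12878, 13507, 12709 and 15138, so it lay below the day 7 control (−0.23 and −0.16). A dimmer one read 1534, 1438, 1140 and 1134 and the dimmest 102, 188, 35 and 78, both above both controls. Against day 7 the probe sets did not all agree, so the direction there is uncertain. UQCRC2, the other core protein, read 15660 and 15588 against 14053 and 13631, which is 0.16 and 0.15 relative to day 5 and within the error of a probe set. The next brightest probe set of UQCRC2 had 0.04 and 0.02 relative to day 5 and −0.17 and −0.19 relative to day 7. A dim one had 0.73 and 0.17, then −0.12 and −0.67, so the direction of UQCRC2 is uncertain. UQCRC1 and UQCRC2, which form the core together, stood on opposite sides of 0 by their brightest probe sets alone.

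Complex IV, cytochrome c oxidase, held the brightest members and had a median of −0.38 and −0.43 relative to day 5. Of its 10 genes 8 and 9 were below 0 (59.4% and 59.0% of all genes). After running-median centring these medians were 0.03 and −0.02, with 5 and 5 of 10 below 0 (54.1% and 52.6% of all genes). That centring sets the median of genes of like brightness to about 0 by its construction. With quantile normalization the medians were −0.14 and −0.19. COX4I1, which takes part in regulation by ATP, read 25862, 26153, 39216 and 41209 (−0.60 and −0.58), below both controls. Its probe set is marked for possible cross-hybridisation, and its other bright one read 20409, 20654, 24634 and 22951, lower by 0.27 and 0.25 relative to day 5. COX6A1 read 35275, 34155, 47005 and 49330 (−0.41 and −0.46), also below both. The deposited values of COX6A1 were 10397 and 10247 on the miRNA arrays and 7202 and 7332 on the controls, so its direction turns on the scaling, as it does for most members. COX6C (−0.50 and −0.57), COX6B1 (−0.53 and −0.47), COX8A (−0.53 and −0.57), COX7A2 (−0.26 and −0.41), COX7C (−0.35 and −0.38) and COX5B (−0.25 and −0.21) had the same order of arrays. COX7C is uncertain, since another of its probe sets stood at 0.57 and 0.58 and a further one at 0.17 and 0.15.

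COX5A, a subunit on the matrix side, was the member of complex IV that stood above both controls. It read 27769 and 26170 on the miRNA arrays against 23131 and 23720, by 0.26 and 0.18 relative to day 5, under the probe set SD of 0.58, and by 0.63 and 0.54 after running-median centring. Its second, dim probe set read 298, 333, 126 and 412. That is 1.06 and 1.21 relative to day 5 but −0.43 and −0.28 relative to day 7, so the direction is uncertain. COX7B read 32750, 31047, 31740 and 35501 and overlapped, with 0.05 and −0.03 relative to day 5.

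**Figure D3:**
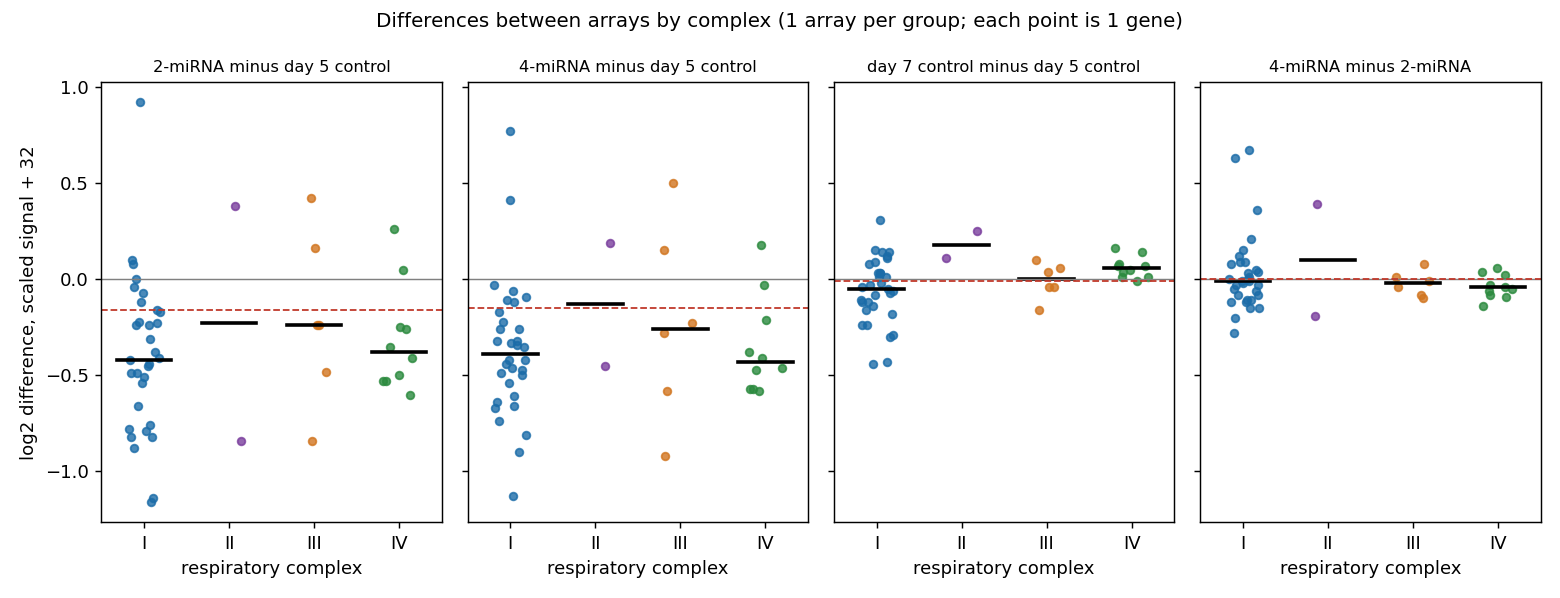
Log2 difference of each member (points) by respiratory complex, in 4 comparisons of single arrays. Black bars are the medians of the complexes and the red dashed line is the median of all expressed genes. In the panels against the day 5 control complex I and IV medians lie between −0.38 and −0.43, and in the other panels the medians of complexes I, III and IV lie within 0.06 of 0.

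Between the controls, which differ in time on the filter by 2 days, the subunit genes were near level. The day 7 control differed from day 5 by a median of 0.01, with 23 of 50 members below 0 (50.7% of all genes). No member was past 2-fold (3.35% of all genes higher, 2.41% lower) or past 0.5 in either direction (12.9% and 11.3%). Complex IV was at 0.06 with 1 of 10 below 0, complex I at −0.05, and complex III at 0.00. With quantile normalization the members' median was −0.04 and that of complex IV −0.03. The highest members were NDUFV3 (0.31), SDHC (0.25), COX7B (0.16) and NDUFA1 (0.15), and the lowest NDUFS6 (−0.44), NDUFS4 (−0.43), NDUFC1 (−0.30) and NDUFS7 (−0.29).

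The 4-miRNA and 2-miRNA arrays, which differ in whether miR-33a and miR-210 were added, were likewise close. The members' median was −0.03, with 29 of 50 below 0 (49.2% of all genes) and none past 2-fold (1.04% higher and 1.33% lower of all genes). By complex the medians were −0.01 for I, 0.10 for II, −0.02 for III and −0.04 for IV. The members with the 4 highest differences were NDUFA7 (0.67), NDUFB6 (0.63), SDHA (0.39) and NDUFB7 (0.36). The probe set SD for this pair was 0.19, but these were picked as the highest of 50, so passing it is no support. The other expressed probe set of NDUFB7, a dim one, gave −0.41. The 4 lowest were NDUFA6 (−0.28), NDUFB3 (−0.20), SDHC (−0.19) and NDUFA5 (−0.15). NDUFA7 and NDUFB6 were past 0.5, where 6.3% of all genes were, and no member was below −0.5 (6.38%).

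Of 4 mitochondrial genes listed as reported targets of miR-210, 3 were measured. ISCU read 7160 on the 2-miRNA array, 5936 on the 4-miRNA array, 7018 on the day 5 and 5622 on the day 7 control. It was lower with miR-210 and miR-33a by 0.27, but the day 7 control was lower still. SDHD, the other membrane anchor of complex II, read 14935, 12605, 15140 and 14323, lower on the 4-miRNA array than on the other 3 and by 0.24 relative to the 2-miRNA array. COX10 read 734, 769, 983 and 892, with 0.06 between the miRNA arrays. The first 2 differences are above the probe set SD of 0.19 but variation between cultures was not measured. Over all expressed genes this comparison had an SD of 0.37 and a lower quartile of −0.17, so differences of this size were not rare.

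Other gene lists were set beside the subunits. Running-median centring sets the median of genes of like brightness to about 0 by its construction. Centred values near 0 in bright lists therefore do not show what those lists share with the subunits. ATP synthase, which uses the proton gradient, had a median of −0.36 and −0.33 on the miRNA arrays relative to day 5. It had 13 and 12 of 17 genes below 0 (59.4% and 59.0% of all genes). After running-median centring its median was 0.00 and 0.00. ATP5F1D, the delta subunit of its rotor, read 1678, 2155, 2997 and 3062, and ATP5PD, a stalk subunit, read 23212, 20599, 32699 and 30545, both lower on the miRNA arrays. ATP5IF1, the inhibitor of the enzyme, read 3686, 3904, 2447 and 2181 and ATP5ME read 14224, 15886, 9846 and 12370, both above the controls. Cytosolic ribosomal protein genes, which are also bright, had −0.56 and −0.60 over 55 genes, and −0.07 and −0.09 after centring. RPL18 (−0.95 on the 2-miRNA array) and RPL41 (−1.07 on the 4-miRNA array) had the lowest scaled differences. Their deposited values were near level, at 12427, 11788, 12506 and 11854 for RPL18 and 13722, 12380, 13295 and 13600 for RPL41. They were multiplied by scaling factors of 3.39, 3.33, 6.53 and 6.73. Whether the RNA of these genes differed was not tested. RPL10L was highest on both (1.22 and 1.31). Mitochondrial ribosomal protein genes, which are dimmer, build the machine that makes the mitochondrial subunits. They had −0.55 and −0.58 over 75 genes, and −0.43 and −0.50 after centring. They were also lower on day 7, by a median of 0.23 below day 5 with 59 of 75 below 0 (50.7% of all genes). MRPL4 was lowest on the 2-miRNA array (−1.31), MRPL38 on the 4-miRNA array (−1.29), and MRPL19 highest on both (1.57 and 1.14).

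Assembly factors of complexes I to IV had −0.39 and −0.46 over 42 genes, and −0.29 and −0.36 after centring, with 3 and 6 of 42 at least 2-fold lower (6.37% and 6.7% of all genes). COA7, a factor for complex IV, was lowest: it read 879, 770, 2304 and 1404, below both controls on both miRNA arrays (−1.36 and −1.54 relative to day 5). SDHAF3, which helps SDHB mature, was the single member of that list at least 2-fold higher, and read 1766 and 1467 on the miRNA arrays against 142 on day 5 and 344 on day 7. Pyruvate dehydrogenase and citric acid cycle genes had −0.38 and −0.15 over 15 genes, with SUCLA2, a subunit of succinyl-CoA synthetase, highest at 1.47 and 1.65. OGDH was lowest on the 2-miRNA array (−0.96) and IDH3B on the 4-miRNA array (−0.78). Of the 13 genes of mitochondrial DNA 7 had expressed probe sets, with a median of −0.59 and −0.64, and −0.05 and −0.09 after centring. COX2, level in the deposited values given above, had −0.95 and −0.97 after multiplication by those unequal scaling factors. COX3 (1.65 and 1.33) and ND6 (1.52 and 1.36) stood above the day 5 control.

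Regulators of mitochondrial biogenesis went both ways relative to day 5, with a median of −0.03 and −0.03. On each miRNA array 6 of 12 were below 0 (59.4% and 59.0% of all genes). YY1 read 12971 and 13282 on the miRNA arrays against 3908 and 3959, higher than both controls, by 1.72 and 1.76 relative to day 5. PPARGC1A, the coactivator PGC-1α, read 591, 525, 194 and 360, higher than both controls on both miRNA arrays. POLRMT, the mitochondrial RNA polymerase, read 960, 768, 1454 and 1573 and was lower than both. GABPB1, a partner of GABPA, was also lower than both controls (−0.51 and −0.65 relative to day 5). NRF1 read 357, 367, 472 and 363, so the day 5 control stood above the other arrays. Relative to day 5 it had −0.37 and −0.34 on the miRNA arrays and −0.35 on day 7. TFAM was at 0.04 and −0.18. Members with the YY1 motif had a median of −0.42 on the 4-miRNA array over 12 genes, and members without it −0.34 over 32.

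HIF-linked mitochondrial genes had medians of 0.86, 1.13 and 1.11 over 7 genes on the 2-miRNA, 4-miRNA and day 7 arrays relative to day 5, with 6, 6 and 4 of them above 0. PDK1, which restrains entry of pyruvate into the citric acid cycle, read 3249, 3108, 572 and 1334. BNIP3, a receptor for the removal of mitochondria, read 17487, 19295, 6740 and 17134, so the day 7 control stood with the miRNA arrays and apart from day 5. The subunit genes did not show that order of arrays, their median being 0.01 on day 7. LONP1, a mitochondrial protease, was lower (1480, 1720, 3069 and 2398).

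**Figure D4:**
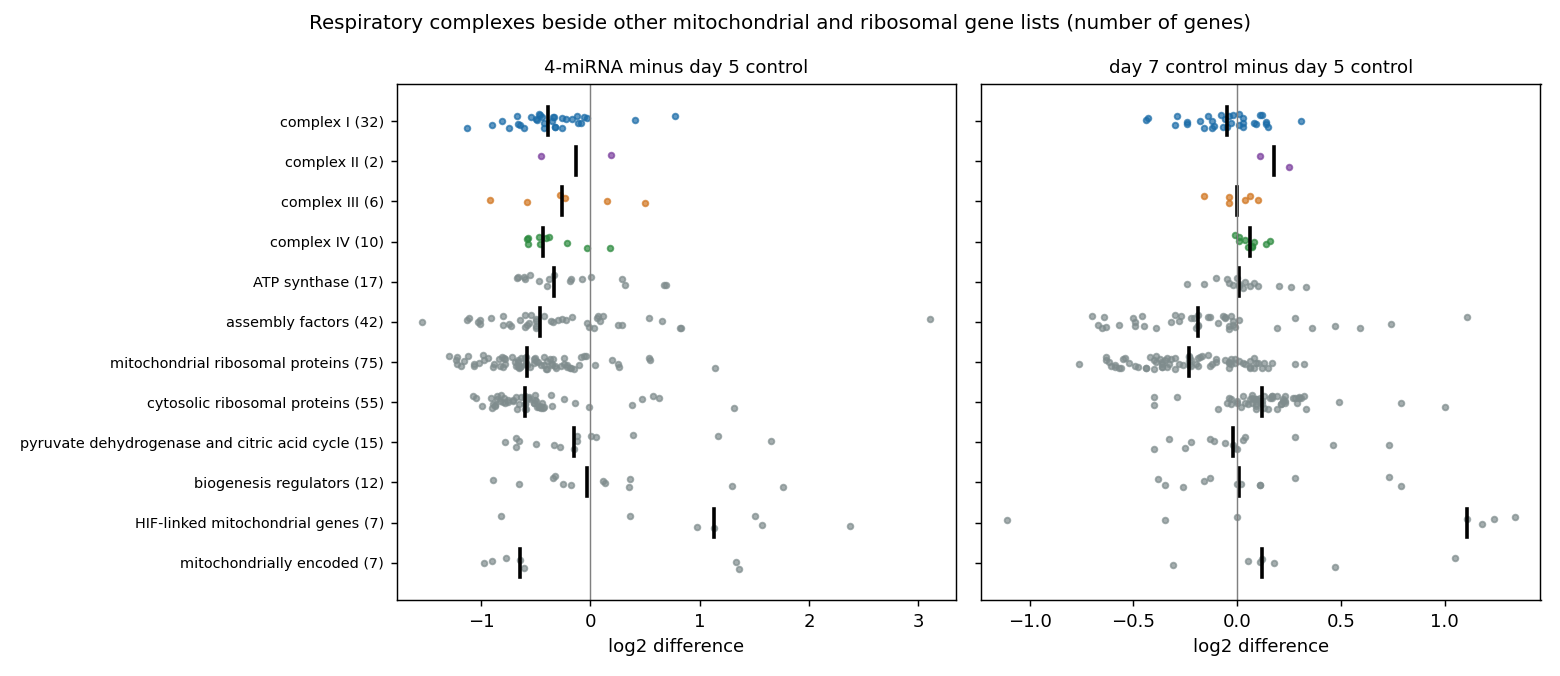
Log2 difference of each gene (points) in respiratory complexes I to IV and in other gene lists, for the 4-miRNA array and the day 7 control, each minus the day 5 control; black bars are medians and the number of genes is in brackets. Mitochondrial ribosomal proteins (−0.58) and cytosolic ribosomal proteins (−0.60) lie lower than complexes I to IV in the left panel, and HIF-linked genes lie at 1.13 and 1.11.

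The order of the complexes depended on the processing. Relative to the day 5 control, complexes I and IV had the lowest medians on both miRNA arrays as measured above. With quantile normalization complex I was lowest (−0.32 and −0.38), while complex IV was at −0.14 and −0.19. With running-median centring complex I was lowest again and complex IV highest. With the median over probe sets complex II was lowest (−0.69 and −0.51). Relative to the day 7 control complex IV was lowest as measured (−0.48 and −0.50), and complex II was lowest with quantile normalization (−0.44 and −0.35) and with running-median centring (−0.32 and −0.25). Probe set disagreement alone gives the median relative to day 5 an error of 0.13 for complex I, 0.30 for complex III, 0.23 for complex IV and 0.51 for complex II, which rests on 2 genes. Genes of a complex are not replicates of a condition, and differences between complexes were not tested.

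**Figure D5:**
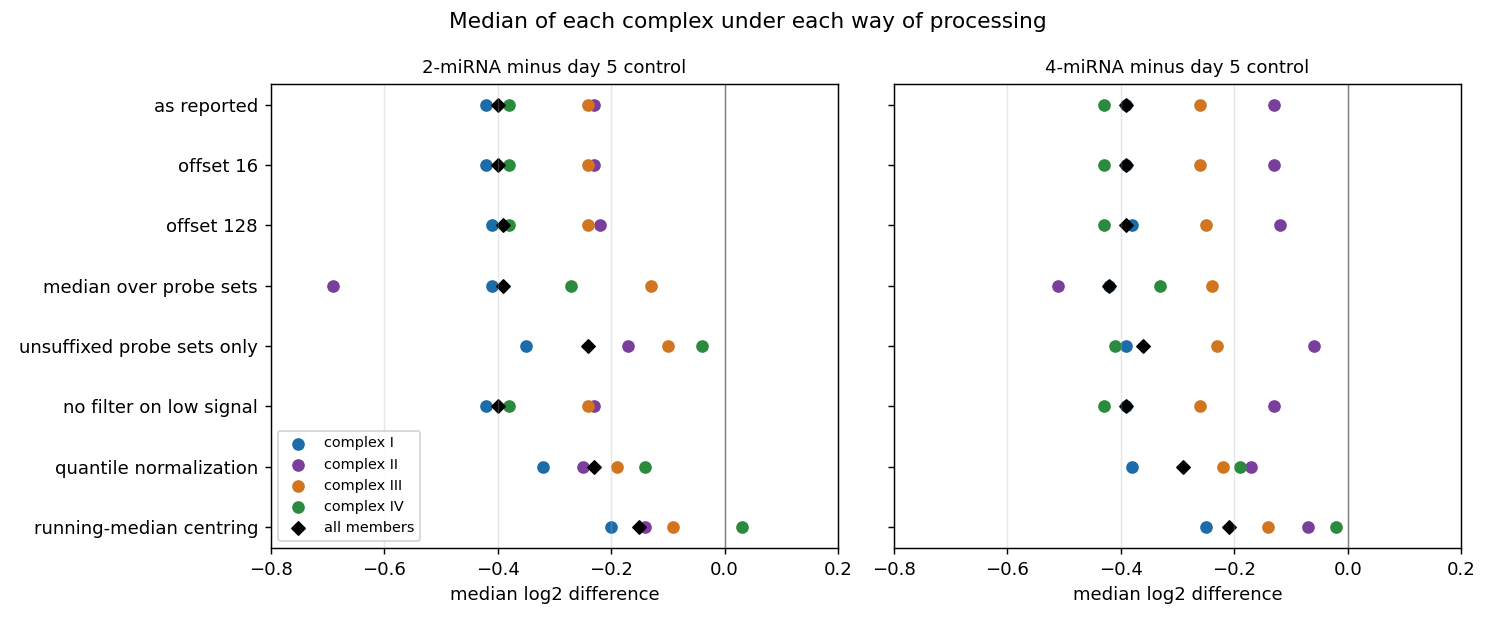
Median log2 difference relative to the day 5 control of complexes I to IV and of all members (x axis), under 8 ways of processing (y axis), for both miRNA arrays. Complex IV (green) goes from −0.38 and −0.43 as reported to 0.03 and −0.02 with running-median centring, and complex I (blue) from −0.42 and −0.39 to −0.20 and −0.25.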

How the data were processed

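Messenger RNA of T84 cells was measured on 4 Affymetrix arrays, 1 per group, so nothing could be averaged. Per the submitters' processing notes, the authors computed the deposited intensity values with MAS5, for 54675 probe sets; its version and settings are unknown here. By the platform annotation, 41097 probe sets name 1 gene symbol, 1801 name several (not used) and 11777 name none; the GRCh38.p14 gene table, used for names alone, held 41043 of them.

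Intensities were multiplied to a 2% trimmed mean of 500 per array, 32 was added and log2 taken, so folds understate differences of dim genes. Probe sets stayed in if their mean log2 reached the median of all probe sets, or the 75th percentile on any array, and the brightest stood for its gene (12264 genes). Past 2-fold means 1 or more on the log2 scale, either way. The members and lists were chosen with earlier results of these data known; symbols of genes of mitochondrial DNA, promoter motifs and the brightest 2.5% of genes were chosen after seeing values.

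Members were named with values on every array when among the 4 highest or 4 lowest in a comparison, past 2-fold, in complex II, or with probe sets 1 or more apart, and genes of other lists when highest or lowest in their list; others were added after their values were seen. Alternatives were quantile normalization, centring by a running median over 501 probe sets, an offset of 16 and one 4 times the main offset, the median over probe sets, only probe sets without a suffix, and no filter. The scripts recovered known shifts on simulated arrays that differed by a uniform factor. The simulation did not include the shared highest value of the deposited arrays, so it does not bear on how bright genes were compared. Python 3.11.15, pandas 2.3.3 and numpy 2.4.6 were used.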

Additional observations from a re-analysis of the deposited data

How the results depend on the processing

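No paired analysis was possible because each group has 1 array; leaving out an array was not possible for the same reason. A median counts as moved when it shifts by more than its error from probe set disagreement alone. With quantile normalization the members' medians were −0.23 and −0.29 against day 5 (2-miRNA, 4-miRNA), −0.23 and −0.27 against day 7, and −0.04 between the controls; complex I was at −0.25 on the 2-miRNA array against day 7, and complex IV at −0.14 and −0.19 against day 5 and −0.10 and −0.16 against day 7. With running-median centring the members were at −0.15, −0.21, −0.11 and −0.15 in the same order and −0.05 between the controls, complex I at −0.20, −0.25, −0.15 and −0.24, and complex IV at −0.02 on the 4-miRNA array against day 5. Complex IV changed sign under this centring to 0.03 and 0.06 on the 2-miRNA array against day 5 and day 7, and to 0.01 on the 4-miRNA array against day 7. This centring sets the median of genes of like brightness to about 0 by its construction, and not each bright gene. COX5A stood at 0.63 and 0.54 relative to day 5 after it. With unsuffixed probe sets only, 39 members were left. Their medians were −0.24 and −0.30 on the 2-miRNA array against day 5 and day 7. Complex IV was at −0.04 on the 2-miRNA array against day 5, and complex I at −0.49 on the 4-miRNA array against day 7. On the 2-miRNA array 26 members were below 0, and the share of all genes was not computed in this setting. Against day 5, 1 member was at least 2-fold higher on each of the 2-miRNA, 4-miRNA and day 7 arrays. Of 9263 genes, 881, 849 and 352 were. On the 4-miRNA array 2 members were at least 2-fold lower than day 5, where 607 of 9263 genes were. With the median over probe sets complex II was at −0.07 between the controls. Without a filter, counts over all genes past 2-fold were 1611 higher and 1983 lower (2-miRNA against day 5), 1608 and 1977 (4-miRNA against day 5), 1485 and 1331 (controls), and 701 and 705 (between miRNA arrays). With the offset 4 times as large they were 152 higher and 77 lower (controls), 19 and 23 (between miRNA arrays), and 311 and 356 lower (2-miRNA and 4-miRNA against day 5). No other value moved, and the offset of 16 moved none.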
